A study of Mus musculus with 18 samples.

Results

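The peaks described here are the H3K4me3 peaks of 2 stretches of the mouse genome that carry 4 developmental regulator genes. One is a 1000000 bp window on chromosome 12 (chr12:57000000-58000000, mm9), named for Nkx2-1, Nkx2-9 and Pax9. The other is a window of the same size on chromosome 7 (chr7:77000000-78000000, mm9), named for Nr2f2. Every peak that overlapped a window was taken, which gave 33 of the 43339 peaks in both lists: 10 of 21905 peaks from control islets and 23 of 21434 from Men1 knockout islets. The windows were chosen by the measured gain in covered length itself, so the gain is given below as a description and not as a test.

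The series holds 18 ChIP-seq samples of mouse pancreatic islets and islet tumours, and the H3K4me3 peak lists of 2 of them were used; the other 16 samples were not analysed here. The control list came from islets of RIP-Cre mice, whose transgene expresses Cre from the rat insulin promoter, and the knockout list from islets of mice with an islet-specific deletion of Men1. Both were harvested at 2 months of age, and all mice had a mixed background of 129s6, FVB/N and C57BL/6. There was 1 library per genotype, so genotype and library cannot be told apart, no value below has a replicate error, and no p-value was computed. The sources used here do not give the number of animals behind a library or the Cre line that made the knockout. Whole islets hold several endocrine cell types as well as vessels and stroma, and a fixed-tissue peak list does not say which cells carried a mark. The islet label was not checked against marker genes, because the gene table used describes another genome build.

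Trimethylation of lysine 4 on histone H3 marks active and poised promoters and is placed by methyltransferase complexes, some of which contain menin, the product of Men1. CpG-rich promoters of developmental regulators often carry it at a low level together with the Polycomb mark H3K27me3 in tissues where the gene is silent. Nkx2-1 is a homeodomain factor of thyroid, lung and ventral forebrain, and Nkx2-9 is a related homeodomain factor of the ventral neural tube. Pax9 is a paired-box factor needed for pharyngeal pouch, tooth and skeletal development. Nr2f2 encodes the orphan nuclear receptor COUP-TFII, known for its roles in veins and mesenchyme.

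In the RefSeq annotation of GRCm38.p6, Nkx2-1, Nkx2-9 and Pax9 are consecutive protein-coding genes, with Mbip before them and Slc25a21 after them. Their positions in that build were not converted to mm9 here, so each peak is given by position and none is assigned to one of the 4 genes. The 250 bases before the RefSeq start used for each gene are shown to give their CpG content. Capitals mark CpG dinucleotides (CG, which reads the same on both strands), and the letters run 5′ to 3′ on the gene's strand. Nkx2-1 lies on the minus strand (chr12:56536909-56537158, GRCm38.p6), as do Nkx2-9 (chr12:56613285-56613534) and Nr2f2 (chr7:70366747-70366996), and Pax9 lies on the plus strand (chr12:56695221-56695470).
Nkx2-1: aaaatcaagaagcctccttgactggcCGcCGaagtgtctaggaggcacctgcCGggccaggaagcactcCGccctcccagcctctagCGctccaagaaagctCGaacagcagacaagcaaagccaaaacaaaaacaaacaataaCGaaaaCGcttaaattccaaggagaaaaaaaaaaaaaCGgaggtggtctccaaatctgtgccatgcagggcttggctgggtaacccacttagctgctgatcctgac 
Nkx2-9: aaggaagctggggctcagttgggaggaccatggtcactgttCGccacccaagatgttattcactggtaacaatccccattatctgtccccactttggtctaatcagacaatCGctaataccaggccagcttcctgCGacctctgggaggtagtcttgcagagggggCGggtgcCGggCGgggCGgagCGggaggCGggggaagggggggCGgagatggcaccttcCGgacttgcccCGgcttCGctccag 
Pax9: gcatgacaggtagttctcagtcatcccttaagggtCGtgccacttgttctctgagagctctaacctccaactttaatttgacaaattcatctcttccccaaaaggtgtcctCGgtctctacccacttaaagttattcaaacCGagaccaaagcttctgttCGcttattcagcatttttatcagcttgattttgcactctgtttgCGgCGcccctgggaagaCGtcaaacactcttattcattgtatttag 
Nr2f2: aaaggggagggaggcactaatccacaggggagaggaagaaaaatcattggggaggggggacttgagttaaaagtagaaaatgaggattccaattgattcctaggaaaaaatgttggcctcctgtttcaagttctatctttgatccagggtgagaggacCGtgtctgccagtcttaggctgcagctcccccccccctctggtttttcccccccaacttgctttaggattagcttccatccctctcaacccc

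The RefSeq promoter of Nkx2-9 held 13 CpG dinucleotides, that of Nkx2-1 9 and that of Pax9 7. The Nr2f2 stretch held 1. Over 32851 RefSeq promoters of the same length, the median was 6 and 92.1% held at least 1. The Nkx2-9 stretch thus had more CpGs than 68.5% of promoters and the Nr2f2 stretch had more than 7.87%. CpG content thus differed widely among the 4 stretches read. Only 1 start per gene was read here. Other starts of Nr2f2 may have another content, so its value describes this stretch and not every promoter of the gene.

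The knockout list held more H3K4me3 peaks and more covered length than the control list in both windows. In the Nkx2-1, Nkx2-9 and Pax9 window the control list covered 6558 bp in 5 peaks and the knockout list 13860 bp in 11 peaks, a ratio of 2.11 (log2 1.08). In the Nr2f2 window the 5 control peaks covered 9712 bp and the 12 knockout peaks 14877 bp, a ratio of 1.53 (log2 0.62). Mean peak width did not rise with the total. On chromosome 12 it was 1312 bp for control and 1260 bp for knockout peaks, and on chromosome 7 it was 1942 and 1240 bp.

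These are the values by which the windows were chosen. Among 1360 windows of 1 Mb with a mean covered length of at least 10000 bp, the median log2 ratio was -0.16 (SD 0.16 over windows), and 10.2% of windows had more length in the knockout list. The windows just outside the choice were on chromosome 7 (143000001 to 144000000), with 8984 and 12729 bp (log2 0.50), on chromosome 6 (126000001 to 127000000), with 10380 and 13509 bp (log2 0.38), and on chromosome 14 (105000001 to 106000000), with 9717 and 12458 bp (log2 0.36). The step from the Nr2f2 window to the next in order was therefore smaller than the step between the 2 chosen windows.

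**Figure D1:**
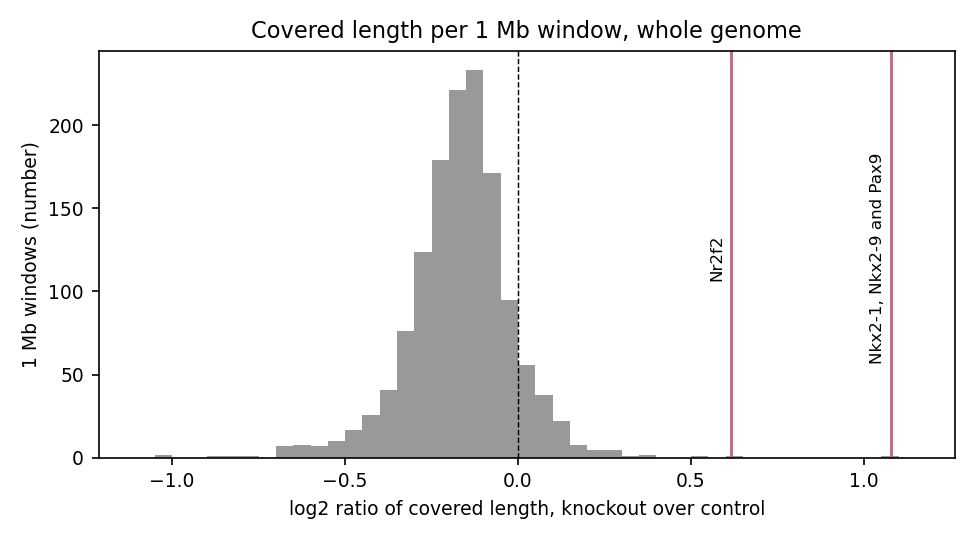
Number of 1 Mb windows (vertical axis) by log2 ratio of the length covered by peaks, knockout over control (horizontal axis), for 1360 windows; vertical lines mark the 2 windows described, at 0.62 and 1.08. Most windows lie below 0, and the marked windows lie at the upper end because they were chosen there.

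Most of the added length came from peaks that the control list did not have. Of the 23 knockout peaks, 13 (56.5%) overlapped no control peak by even 1 bp: 6 of 11 on chromosome 12 and 7 of 12 on chromosome 7. Over the whole knockout list 8.71% of peaks had no control partner. All 10 control peaks of the windows overlapped a knockout peak, and 12.7% of the whole control list had no knockout partner. Because the windows were chosen on length from these lists, nothing is read from these shares.

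On chromosome 12 the added 7302 bp were made up of 5808 bp in knockout-only peaks (79.5%) and a net 1494 bp in shared peaks. With partners allowed within 1 kb these were 4229 and 3073 bp, because a 1579 bp peak 311 bp from a control peak then counted as shared. On chromosome 7 the added 5165 bp were made up of 4640 bp in knockout-only peaks (89.8%) and a net 525 bp in shared peaks. This last value changed sign, to -527 bp, with a reciprocal overlap of 50% or a score of at least 100, and was -463 bp at a score of at least 200. New peaks rather than wider ones accounted for the larger share in each window as reported.

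**Figure D2:**
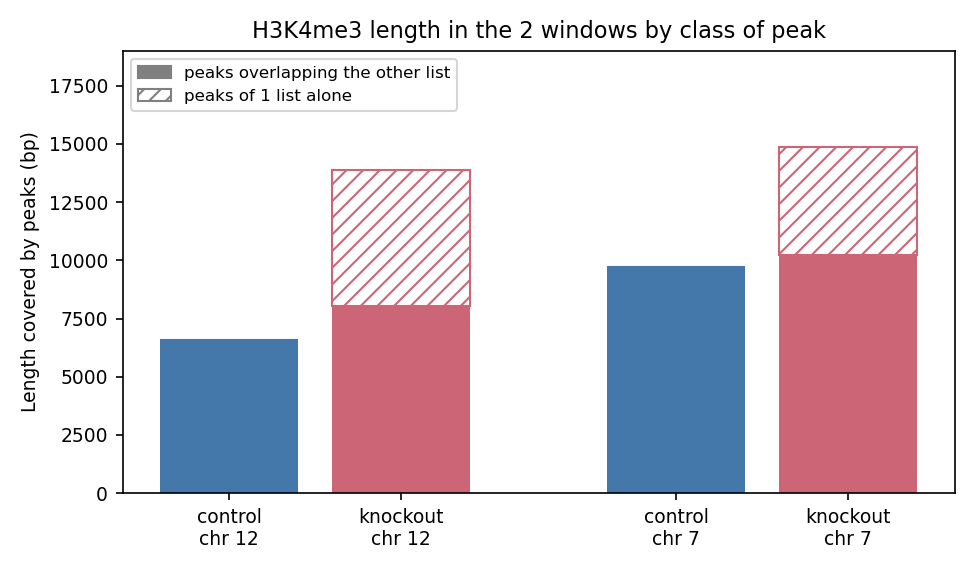
Length covered by H3K4me3 peaks (bp, vertical axis) in each list and window, split into peaks that overlap the other list (filled) and peaks of 1 list alone (hatched). The control bars have no hatched part, and the knockout bars carry 5808 bp on chromosome 12 and 4640 bp on chromosome 7.

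In the Nkx2-1, Nkx2-9 and Pax9 window, 4 of the 6 knockout-only peaks stood between 57712544 and 57797151. A peak at 57795573 to 57797151 was the widest of them, at 1579 bp, with a deposited score of 300.94. It stood just left of a shared knockout peak, 311 bp from the nearest control peak. The highest-scoring was a 961 bp peak at 57782017 to 57782977, with a score of 376.92, which lay 14.5 kb from any control peak. These 2 peaks scored higher than 96.5% and 97.8% of the 1867 knockout-only peaks of the whole list. The window was chosen on covered length, which includes these peaks, so nothing is read from their place.

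A pair of neighbouring knockout-only peaks stood at 57712544 to 57713478 (935 bp, score 215.58) and 57713849 to 57714579 (731 bp, score 131.92). The nearest control peak was 75.1 and 76.4 kb away, so this was a stretch marked in the knockout list alone. The remaining ones were isolated single peaks. One was at 57559629 to 57560607 (979 bp, score 153.28), 73.5 kb from a control peak, and the other at 57376349 to 57376971 (623 bp, score 100.79), 25.6 kb away.

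When peaks of both lists within 20 kb were grouped, a spacing set after the positions were seen, the group at 57782017 to 57798893 held 1 control peak of 849 bp and 3 knockout peaks with 4067 bp together. That group gave 44.1% of the length added on chromosome 12. The group at 57712544 to 57714579 gave 22.8%, the single knockout peak at 57559629 to 57560607 gave 13.4%, and the group at 57633741 to 57637773, with 2 peaks in each list, gave 12.2%.

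The 5 shared peaks of the chromosome 12 window differed in how far their widths changed. The strongest, at 57445605 to 57447475 in control islets, had a score of 3100 in both lists and went from 1871 to 1732 bp, a log2 ratio of -0.11. The median of all 18299 one-to-one pairs was also -0.11 (SD 0.29 over pairs). A second well-scored pair, at 57402615 to 57403687 in the control list, went from 1073 to 1139 bp, with scores of 559.48 and 846.97. Neither of these left-hand pairs contributed more than 66 bp to the gain.

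The other shared pairs were wider in the knockout list by 408 to 678 bp. The control peak at 57634150 to 57634834 was 685 bp wide with a score of 93.73, and its partner was 1093 bp wide with a score of 339.80. Its left border lay 409 bp further out and its right border 1 bp further in. Beside it, the control peak at 57635362 to 57637441 was 2080 bp wide with a score of 469.43, against 2561 bp and a score of 828.88 in the knockout list. The last pair, at 57797463 to 57798311, went from 849 bp with a score of 89.44 to 1527 bp with a score of 198.92, mostly by its right border, which lay 582 bp further out.

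In the Nr2f2 window the knockout-only peaks were narrower and lower in score than those on chromosome 12. Their widths ranged from 460 to 1122 bp with a median of 606 bp, and their scores from 61.00 to 181.69 with a median of 76.1. The lowest score in the whole control list was 60.01 and in the whole knockout list 60.02. The lowest of these peaks thus lay just above the floor of the lists, and a weaker control peak would not be listed. On chromosome 12 the widths ranged from 623 to 1579 bp with a median of 948 bp, and the scores from 100.79 to 376.92 with a median of 184.4. A score under 100 was found for 5 of 7 peaks on chromosome 7 and for 0 of 6 on chromosome 12, against 62.5% of all knockout-only peaks. Over all knockout-only peaks of the list the median score was 85.0 and the median width 665 bp. Of the peaks described, 3 of 7 on chromosome 7 and 6 of 6 on chromosome 12 scored above that median. Because both windows were chosen on covered length, nothing is read from these counts.

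The knockout-only peaks of the Nr2f2 window were scattered over most of its length. The highest-scoring and widest lay at 77137233 to 77138354 (1122 bp, score 181.69), 338 kb from the nearest control peak. The peaks at 77094858 to 77095317 (460 bp, score 76.09), 77263309 to 77263835 (527 bp, score 61.00) and 77424947 to 77425452 (506 bp, score 71.08) stood 381, 212 and 50.8 kb from a control peak. On the other side were peaks at 77659392 to 77660103 (712 bp, score 92.53) and 77967708 to 77968313 (606 bp, score 75.32), at 109 and 197 kb. Only the peak at 77479391 to 77480097 (707 bp, score 100.06) lay close to a control peak, at 2.45 kb. Thus 6 of the 7 were isolated, and the peak at 77263309 to 77263835 scored higher than only 3.37% of all knockout-only peaks.

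**Figure D3:**
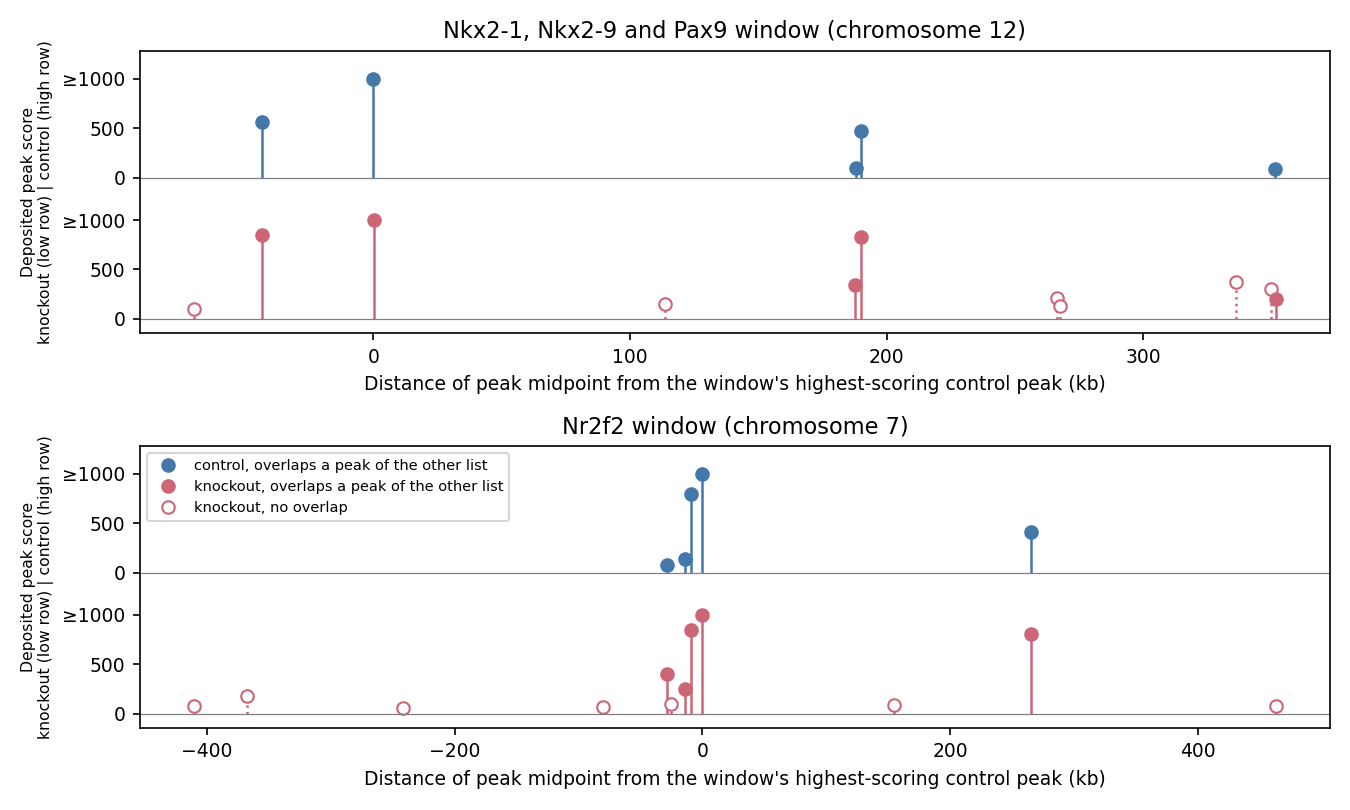
Position of every peak midpoint in both windows, in kb from the highest-scoring control peak of the window (horizontal axis), with its deposited score as height (scores of 1000 or more are drawn at 1000). Filled points overlap a peak of the other list and open points do not; open points appear in the knockout rows alone, 4 of 6 of them toward the right end on chromosome 12 and spread out on chromosome 7.

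The central group of the Nr2f2 window, at 77475595 to 77507638, was marked in both lists, with 4 control and 5 knockout peaks. Its broad peak, at 77502938 to 77507638 in control islets, had a score of 3100 in both lists and went from 4701 to 4358 bp, a log2 ratio of -0.11. The peak at 77495331 to 77496814 was 1484 bp wide with a score of 797.01 in control islets and 1458 bp wide with a score of 845.74 in knockout islets. The peak at 77490538 to 77491595 had widths of 1058 and 994 bp and scores of 137.01 and 245.37. Each of these was slightly narrower in the knockout list, as was the median pair of the genome.

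One pair of the group differed in the opposite direction. The control peak at 77476220 to 77476943 was 724 bp wide with a score of 82.16, and the knockout peak at 77475595 to 77477370 was 1776 bp wide with a score of 406.66, a width ratio of 2.45. Its left border lay 625 bp and its right border 427 bp further out. This pair alone added 1052 bp, more than the net 525 bp of all shared peaks of the window. A separate shared peak at 77769349 to 77771093 had widths of 1745 and 1651 bp and scores of 407.64 and 806.77.

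Over both windows, 5 of 10 shared pairs were wider in the knockout list and 5 narrower, against 26.0% of all one-to-one pairs that were wider. Knockout peaks at least 1.5 times as wide as their partner were 3 of 10, against 0.945% of all pairs. The windows were chosen on covered length, which includes these widths, so nothing is read from these shares. The 3 were the pairs with the lowest control scores in the windows, 82.16, 89.44 and 93.73. Among all 743 pairs whose control peak scored under 100, 50.9% were wider in the knockout list and 11.4% at least 1.5 times as wide. Whether low control scores account for the 3 wide pairs was not tested. In the mirrored choice, 1091 pairs whose knockout peak scored under 100, the control peak was wider in 87.1%. Over all one-to-one pairs the knockout peak was wider in only 26.0%, so wider control peaks were common throughout. The control peak was at least 1.5 times as wide in 39.6% of the 1091 pairs, against 6.11% of all pairs. The strongest pair in each window, at a score of 3100 in both lists, was narrower in the knockout list. Scores are given side by side for each pair, but the depths of the libraries are unknown and scores of different lists are not on a common scale.

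**Figure D4:**
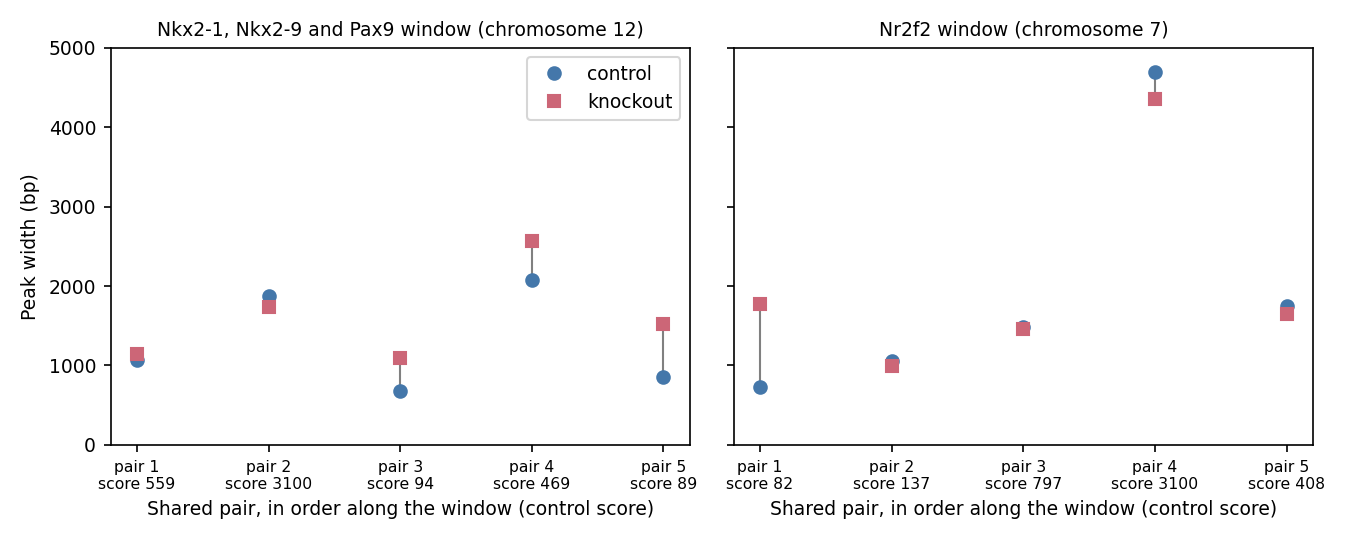
Width (bp, vertical axis) of the control peak (circle) and the knockout peak (square) of each of the 10 shared pairs, in order along the window, with the control score under each pair. The widest gaps in bp are 1052 at the pair with a control score of 82 on chromosome 7 and 678 at the pair with 89 on chromosome 12, and pairs with a score of 3100 lie slightly lower in the knockout list.

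The surroundings of the windows differed. The 1 Mb before the chromosome 12 window had 26210 bp in the control and 22957 bp in the knockout list (log2 -0.19), and the 1 Mb after it 10381 and 9298 bp (log2 -0.16), both near the median of all windows. The nearest peaks outside were shared, at 61.4 kb to the left (56936738 to 56938578, score 3100) and 297 kb to the right (58297305 to 58298472, score 451.05) in the control list. Around the Nr2f2 window peaks were sparse. The 1 Mb before it had 0 control peaks and 1 knockout peak of 551 bp (76655268 to 76655818, score 66.68). The 1 Mb after it had 2 control peaks with 1881 bp and 4 knockout peaks with 3773 bp, 2 of which had no control partner. More knockout than control length was thus found on both sides of the Nr2f2 window and on neither side of the chromosome 12 window.

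Windows with several knockout-only peaks were rare elsewhere too. When peaks were assigned by midpoint, 11 of 2301 windows that held any peak had 6 or more knockout-only peaks. Of those 11, 4 had 0 control-only peaks, including both windows described. The cut of 6 equals the lower count of the windows described, and both were chosen on length, so nothing is read from these counts. For contrast, the windows with the lowest length ratios, on chromosome 10 (50000001 to 51000000) and chromosome 2 (115000001 to 116000000), had 0 knockout-only peaks. Their length fell from 13770 to 6799 bp and from 25615 to 12778 bp, mostly within shared peaks, where the control list covered 12994 and 22485 bp and the knockout list 6799 and 12778 bp. The windows described here differed from the control list mainly by added peaks, and the windows of lowest ratio mainly by narrower shared ones. No test of this difference was made, since all 4 windows were chosen on length.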

How the data were processed

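H3K4me3 ChIP-seq peak lists of control and Men1 knockout islets at 2 months were used as deposited. Per the submitters' processing notes, Bowtie, MACS 1.4.2 and the build mm9 were used. The sources used here do not give the use of input, filters or pooling of animals. The names of both lists hold further tags, which may mark a repeat and a score cutoff but are not explained. The score is the deposited value of each peak, for which MACS 1.4.2 writes minus 10 times log10 of the p-value, although the lists do not state it. Many peaks are tied at 3100. The deposited lists give other values as start and end positions, from which widths were taken, and no read counts, so depth is unknown. The genotype, age and mark in a list's name matched it to its sample, and 0 per-sample columns were left unused.

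Peaks of different lists with 1 bp or more in common were shared, and all others were one-list peaks. Positions are counted from 1. All peaks of both windows are given, whatever their values, and the 4 genes are those that name the windows. The members and lists were chosen with earlier results of these data known. Overlaps counted with Python 3.11.15 and with bedtools 2.31.1 gave the same 1867 knockout-only peaks. On a simulated list made from the 21905 control peaks, 200 of 200 removed and 200 of 200 inserted peaks were found. The alternatives were other overlap rules, score minimums, merging, equal numbers of peaks and moved windows. Promoter sequences are RefSeq's, matched by symbol for 4 of 4 genes. No mm9 annotation was used, so that peaks are not tied to genes.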

Additional observations from a re-analysis of the deposited data

How the results depend on the processing

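Within 1.5 times of the reported value were 61 of 77 recomputed values, with log2 ratios judged as the ratios they stand for. Some alternatives, such as clipping to the window and equal numbers of peaks, gave the reported values again. The log2 ratio on chromosome 7 was 0.42 at a score of at least 100 and 0.37 at 200 or more. On chromosome 12 it was 1.46 and 0.99. Both windows lost their gain in the top 50% of each list by score, with log2 ratios of -0.11 (chromosome 12) and -0.11 (chromosome 7), since only the 1 pair scoring 3100 was left in each. Moving the window 250 kb to the left gave 0.45 on chromosome 12. Knockout-only peaks on chromosome 7 numbered 3 at a score of at least 100 and 2 at 200 or more, with 2770 bp at 200 or more. The 2 were shared peaks as reported (scores 406.66 and 245.37), whose control partners scored 82.16 and 137.01 and fell out. The peak scoring 406.66 was also among the 3. The highest score of the knockout-only peaks reported there was 181.69, so they all fell out at 200. A reciprocal overlap of 50% gave 1 control-only peak on chromosome 7. The length added in shared peaks moved most. On chromosome 12 it was 3073 bp with partners within 1 kb or 5 kb, 408 bp at a score of at least 100 or 200, and 3140 bp with peaks within 1 kb merged. On chromosome 7 it was -527 bp with reciprocal overlap and at a score of at least 100, -463 bp at 200 or more, and 1232 bp within 5 kb. These shifts follow from peaks passing between the shared and one-list classes or out of the lists. With merging, the gaps between joined peaks also counted as covered length.

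With windows at 500 kb offsets the best one touching the chromosome 12 window (57500001 to 58500000) ranked 1, with a log2 ratio of 0.70. The other one touching it (56500001 to 57500000) ranked 556, with a log2 ratio of -0.13. Offset windows touching the chromosome 7 window had too little length to be ranked. With a minimum of 5000 bp the windows ranked 1 and 3. No paired analysis was possible because there is 1 library per genotype, and for the same reason no library was left out. Depth is unknown, so whether a missing control peak was beyond detection cannot be said.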
